A study of Mus musculus with 8 samples.

Results

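The NF-kB family and the HIVEP zinc fingers were followed across WT and *Trim28*-deleted Th17 cells. The set was chosen by gene symbol and held 10 genes: the 5 Rel subunit genes *Nfkb1*, *Nfkb2*, *Rel*, *Rela* and *Relb*, the IkB genes *Nfkbia* and *Nfkbiz*, and *Hivep1*, *Hivep2* and *Hivep3*. Of the 10 genes, 9 were among the 13704 genes listed in the RNA-seq libraries, and the same 9 were among the 10881 genes whose reads in WT and KO summed to 10 or more, called the measured genes here. *Nfkbiz* was listed in neither library.

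Both libraries came from C57BL/6 mice. The WT library was made from wild type cells, and the KO library from cells of the genotype TRIM28fl/flxCD4cre, in which loxP-flanked *Trim28* is removed by Cre under the *Cd4* promoter, so that the deletion takes place in developing T cells before they are naive. Sorted naive CD4+ T cells of either genotype were driven towards Th17 by TGF-β (0.5 ng/ml) and IL-6 (20 ng/ml) on anti-CD3 and anti-CD28 for 3 days, and anti-CD3 was given again before harvest. Each genotype was sequenced once, so the differences have no replicate check and no p-value is given. How many mice each library came from, and their age, are not given in the sources used here.

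The WT library held 6650066 uniquely assigned reads and the KO library 6185108. *Trim28* had 4485 reads in WT and 180 in KO, a log2 fold change of -4.53. The T cell markers (7 genes, *Cd3e*, *Cd4* and *Lck* among them) were listed in both libraries, with summed levels of 3921 CPM (reads per 1000000 reads of the library) in WT and 3863 in KO. The Th17 markers (7 genes, *Il17a* and *Il17f* among them) summed to 2415 CPM in WT and 574 in KO. *Ccr6*, which is also in that list, had only 5 and 7 reads. Markers of other cells were low. The 5 B cell markers ranged from 1.05 to 4.96 CPM in WT and from 0 to 5.17 in KO, and *Pax5* was at 0 in KO. Of the 6 myeloid markers, 4 were at 0 in each library, *Lyz2*, *Csf1r* and *Adgre1* in both. The 4 dendritic cell markers summed to 3.61 and 4.69 CPM, the 2 CD8 markers to 7.97 and 4.69 CPM, and both NK markers were at 0 in both libraries. In these bulk libraries fewer cells of a type and less RNA per cell cannot be told apart, and the part of the lower Th17 marker level and of the lower B cell and CD8 marker levels in the differences below was not tested.

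NF-kB proteins are dimers of Rel subunits. RelA, c-Rel (from *Rel*) and RelB carry transactivation domains, whereas *Nfkb1* and *Nfkb2* encode the precursors p105 and p100, which are cut to p50 and p52. IkB proteins such as IkBα (from *Nfkbia*) hold the dimers in the cytoplasm until IKK marks them for destruction, which T cell receptor signals bring about through BCL10 and MALT1. In T cells c-Rel and RelA drive activation genes, and IkBζ (from *Nfkbiz*), an inducible nuclear IkB, is known as a co-activator of Th17 genes. The HIVEP proteins, also named Schnurri, are very large C2H2 zinc finger proteins that bind kB-like DNA sites. HIVEP3 also binds TRAF2 and c-Jun, and HIVEP2 has been studied as a restraint on NF-kB in CD4+ T cells.

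Several genes of the family carry binding sites for their own products at the start site, which is how NF-kB feeds back on itself. The kB consensus of 10 bases was searched on both strands in the RefSeq promoter windows of GRCm38.p6, from 250 bases before to 50 after a start site. Of the 10 genes, 7 had a window, and *Nfkb1*, *Relb* and *Nfkbiz* had none in the table. A match was present for 5 of the 7, namely *Nfkbia*, *Rel*, *Nfkb2*, *Hivep1* and *Hivep2*, against 12.2% of the measured genes with a window that had a match in any window. Of all 32851 single windows, 8.46% held a match. The consensus is rich in G and C, and the windows with a match had from 61.0% (*Nfkbia*) to 87.0% (*Hivep1*) G and C. Without a match, the *Rela* window had 71.3% and the *Hivep3* window 44.3%. *Nfkb2* has 3 windows. The shares were not matched for base content or number of windows, whose part in the 5 of 7 was not tested, and the 5 of 7 is not read as feedback. No match was found for *Rela* and *Hivep3*, which says only that these letters are not in that window. The windows need not lie at the outer 5′ end of the gene positions given below. The start site of the *Hivep3* window lies 80919 bases inside the gene, that of *Hivep2* 4770, and those of *Nfkb2* from 3743 to 4936. The matches are descriptions of letters and were not shown here to be bound. All were found with the same consensus, so the likeness of the capital letters between the genes follows from the search. Each line is a stretch of 30 bases, 5′ to 3′ on the strand of the gene, with the match, or overlapping matches, in capitals.
*Nfkbia*: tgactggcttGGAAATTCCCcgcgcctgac
*Rel*: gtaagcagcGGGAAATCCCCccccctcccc
*Nfkb2*, first start site: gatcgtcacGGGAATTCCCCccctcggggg
*Nfkb2*, first start site, closer to it: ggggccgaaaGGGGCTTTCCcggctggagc
*Nfkb2*, between the second and the third start sites: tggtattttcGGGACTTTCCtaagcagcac
*Hivep1*: cgccgcccccGGGGATCCCCtgctgccccg
*Hivep2*: agggcaccggGGGGCTTTCCtcccctcctc
The *Nfkbia* stretch is chr12:55492657-55492686 on the minus strand, and its match begins at base -29 from the start site. The *Rel* stretch is chr11:23771041-23771070, minus strand, with the match beginning at base -92. Those of *Nfkb2*, on the plus strand, are chr19:46304689-46304718, chr19:46304716-46304745 and chr19:46305695-46305724. Those of *Hivep1* and *Hivep2* are chr13:42051981-42052010 and chr10:13966148-13966177, both on the plus strand, with the match beginning at bases -30 and -221. A further match of *Nfkb2*, at base -236 from its second start site, is not printed.

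Comparing the genotypes, 2 of the 9 measured genes were at least 2-fold lower in the KO library, *Hivep3* and *Rel*, and none was at least 2-fold higher. Of all 10881 measured genes, 7.94% were at least 2-fold lower and 3.75% at least 2-fold higher. The exact 95% interval of the fold change, which covers counting error only, lay below 0 on the log2 scale for 5 of the 9 (*Hivep1*, *Hivep2*, *Hivep3*, *Rel* and *Nfkb2*) and above 0 for 3 (*Nfkb1*, *Rela* and *Nfkbia*). Among all measured genes it lay below 0 for 25.0% and above 0 for 23.5%. The median log2 fold change (KO over WT, scaled to library totals with 0.5 added to each count) was -0.33 for the 9 genes and -0.02 for all measured genes. After a correction for transcript length, described with the HIVEP genes, the median of the 9 was 0.02.

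**Figure D1:**
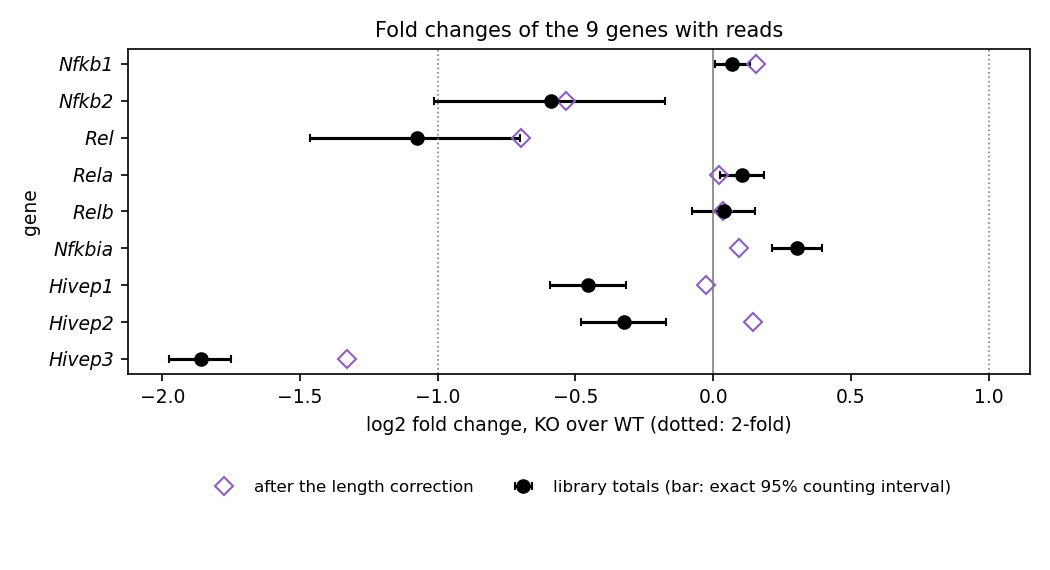
Log2 fold change (KO over WT) of the 9 genes with reads, 1 gene per row. Black points are scaled to library totals with exact 95% counting intervals, and open diamonds are the values after the transcript length correction. *Hivep3* is past the 2-fold line in both, at -1.86 and -1.33, whereas *Rel* crosses it from -1.07 to -0.70.

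The Rel subunits fell into an abundant group without a 2-fold difference and a scarce group that was lower in the KO library. *Nfkb1* (chromosome 3 of GRCm38, 135584655 to 135691969) had 4066 reads in WT and 3968 in KO. Its log2 fold change was 0.07, within an interval of 0.01 to 0.13. *Rela* (chromosome 19, 5637442 to 5648134), the main transactivating subunit, had 2519 and 2517 reads, with a difference of 0.10 on the log2 scale (0.02 to 0.18). With the GC correction this value was -0.01. *Relb* (chromosome 7, 19606217 to 19629438), the partner of p52 in the non-canonical pathway, had 1278 and 1221 reads, and its log2 difference of 0.04 had an interval of -0.08 to 0.15 that includes 0, and with the GC correction it was -0.07. These 3 genes held nearly the same level in both libraries.

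*Rel* (chromosome 11, 23736847 to 23770969), which encodes c-Rel, had 193 reads in WT and 85 in KO. On the log2 scale this was -1.07, with counting limits of -1.46 and -0.70, and 7.10% of the measured genes had a lower value. Within the libraries, the ratio of *Rel* to *Rela* reads was 0.0766 in WT and 0.0338 in KO, so that the KO ratio was 0.441 of the WT ratio (exact 95% interval from 0.335 to 0.576). This ratio is not corrected for length, and the longest transcripts have 7466 bases for *Rel* and 2716 for *Rela*. After the length correction *Rel* was at -0.70 and *Rela* at 0.02, so the 2 genes lay closer together than this ratio gives. The 2-fold call of *Rel* was lost with the length correction, at -0.70, and with the GC correction, at -0.98. It was also lost when cultures were taken to vary by a coefficient of 0.2 in an exact test of edgeR.

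*Nfkb2* (chromosome 19, 46300994 to 46312400), the gene of p100 and p52, had 128 reads in WT and 79 in KO, which is -0.59 on the log2 scale (-1.01 to -0.18). It did not pass the 2-fold limit. The 3′ end of *Nfkb2* overlaps *Psd* on the opposite strand, which had 109 and 134 reads. Whether reads were counted by strand is not stated in the sources used here, so reads from the shared bases cannot be told apart.

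Of the Rel subunit reads, the 3 abundant genes gave similar shares in both libraries, and *Rel* and *Nfkb2* gave smaller shares in KO. *Nfkb1* gave 49.7% of the 8184 Rel subunit reads in WT (exact 95% binomial interval from 48.6 to 50.8) and 50.4% of the 7870 in KO (from 49.3 to 51.5). *Rela* gave 30.8% (from 29.8 to 31.8) and 32.0% (from 31.0 to 33.0), and *Relb* 15.6% (from 14.8 to 16.4) and 15.5% (from 14.7 to 16.3). *Rel* gave 2.36% (from 2.04 to 2.71) in WT and 1.08% (from 0.864 to 1.33) in KO. *Nfkb2* gave 1.56% (from 1.31 to 1.86) and 1.0% (from 0.796 to 1.25). For both genes the intervals do not overlap. How many of all genes would meet that rule was not determined. By another rule, the interval of the fold change, 25.0% of all measured genes lay below 0, as both genes did, and 23.5% above. These shares need no scaling between libraries, but they compare the 2 libraries and not the genotypes. They are not corrected for the trend of the fold change with transcript length. After that correction the log2 fold change was -0.70 for *Rel*, -0.53 for *Nfkb2* and 0.02 for *Rela*.

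**Figure D2:**
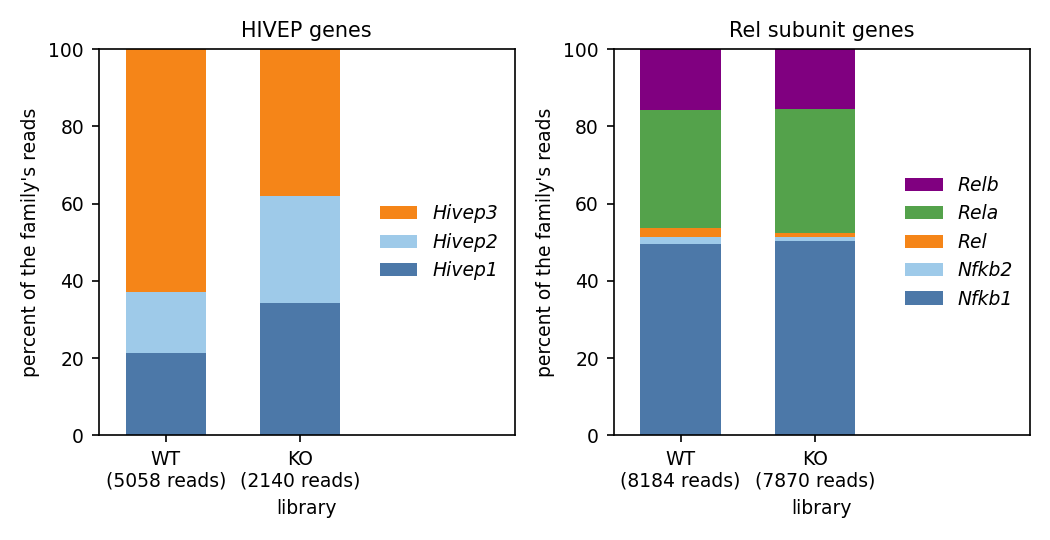
Percent of the reads of the HIVEP genes (left) and of the Rel subunit genes (right) that each gene gave, 1 bar per library. The *Hivep3* part is 62.9% of the WT bar and 38.0% of the KO bar, while *Nfkb1* is at 49.7% and 50.4% and the thin *Rel* part at 2.36% and 1.08%.

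Among the inhibitors, *Nfkbia* (chromosome 12, 55489409 to 55492647), the IkBα gene and itself an NF-kB target, had 1866 reads in WT and 2143 in KO. The log2 difference was 0.30 (0.21 to 0.39), below 2-fold, and 0.09 after the length correction. Relative to *Rela* the *Nfkbia* reads were 0.741 in WT and 0.851 in KO, a ratio of 1.15 between the libraries (interval from 1.06 to 1.25). This ratio is not corrected for length, and the longest transcripts have 1578 bases for *Nfkbia* and 2716 for *Rela*. After the length correction *Rela* was at 0.02, near the 0.09 of *Nfkbia*.

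*Nfkbiz* (chromosome 16, 55811375 to 55838954) had no row in either table under its symbol or an older one. At these depths a count of 0 allows a level of up to 0.451 CPM in WT and 0.485 CPM in KO, for counting error only. It has 3 curated RefSeq mRNAs, and listed genes with several such transcripts had fewer reads in these tables. Among listed genes the median WT count was 184 reads for genes with 1 such transcript, 69 for genes with 2 and 44 for genes with 3 or more. The values in KO were 170, 61 and 36. The share of annotated genes that were listed at all went the other way, with 51.2% of genes with 1 such transcript, 66.7% with 2 and 68.9% with 3 or more. Genes that T cells are known to express were also absent or scarce. *Ikbkg*, the gene of the IKK subunit NEMO, and *Myc*, with 7 and 4 such transcripts, were listed in neither library, and *Ptprc* (CD45), with 3, had 35 and 13 reads. *Myc* and *Ptprc* were picked here after their values were seen. The part of the transcript number in the absence of *Nfkbiz* was not tested, and its absence is not read here as a lack of expression. *Nfkb2* and *Hivep2* have 3 such transcripts, *Rela* and *Relb* 2, and *Nfkb1*, *Rel*, *Nfkbia*, *Hivep1* and *Hivep3* 1.

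The HIVEP genes were each lower in the KO library, *Hivep3* far more than the other two, but after the length correction *Hivep1* was at -0.03 and *Hivep2* at 0.14, on the other side of 0. *Hivep3* (chromosome 4, 119733759 to 120138045) had 3179 reads in WT and 814 in KO, which is 478 and 132 CPM. The WT level was 3.63 times the KO level, or -1.86 on the log2 scale with counting limits of -1.97 and -1.75, and 2.03% of measured genes had a lower value. The 2-fold call of *Hivep3* was lost in the edgeR test with a coefficient of variation of 0.4 between cultures. *Hivep1* (chromosome 13, 42051899 to 42185030) had 1080 and 733 reads, a log2 difference of -0.45 (-0.59 to -0.32). *Hivep2* (chromosome 10, 13961609 to 14151378) had 799 and 593 reads, a log2 difference of -0.33 (-0.48 to -0.17). Neither passed the 2-fold limit. Together the 3 genes took 761 CPM in WT and 346 CPM in KO.

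Within the family the balance between the genes differed between the libraries. *Hivep3* gave 62.9% of the 5058 HIVEP reads in WT (exact 95% binomial interval from 61.5 to 64.2) and 38.0% of the 2140 in KO (from 36.0 to 40.1). *Hivep1* gave 21.4% and 34.3%, and *Hivep2* 15.8% and 27.7%. Per GENCODE transcript length the *Hivep3* share was 56.8% in WT and 32.3% in KO, and per RefSeq mRNA length 63.5% and 38.7%. The reads of *Hivep3* relative to *Hivep1* were 2.94 in WT and 1.11 in KO, so that the KO ratio was 0.377 of the WT ratio (exact interval from 0.334 to 0.427). Relative to *Hivep2* it was 0.345 (from 0.302 to 0.394). For *Hivep1* relative to *Hivep2* it was 0.914, with an interval from 0.792 to 1.06 that includes 1. *Hivep3* thus differed from both relatives beyond counting error, which *Hivep1* and *Hivep2* did not do from each other. These ratios are not corrected for the trend with transcript length. After that correction *Hivep3* was at -1.33, *Hivep1* at -0.03 and *Hivep2* at 0.14.

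Long transcripts were lower in the KO library as a class, and the HIVEP transcripts are among the longest. The longest GENCODE M21 transcripts of *Hivep1*, *Hivep2* and *Hivep3* have 8753, 9846 and 11838 bases, against a median of 3318 for the measured genes. Across the 10793 measured genes that have a length, which are not independent replicates, the fold change and the length had a Spearman's rho of -0.37. The median log2 fold change was -0.50 among the 409 measured genes with at least 8753 bases, and 18.6% of them were at least 2-fold lower and 2.2% at least 2-fold higher. Their interval lay below 0 for 65.3% and above 0 for 6.6%. Of these long genes, 56.0% had a lower value than *Hivep1*, 67.2% a lower one than *Hivep2* and 4.65% a lower one than *Hivep3*. Among the 214 with at least 500 reads over both libraries as well, 6.07% were at least 2-fold lower and 0.467% higher, the interval lay below 0 for 81.3% and above 0 for 6.54%, and *Hivep3* had the lowest value. Among all 4677 measured genes with at least 500 reads, whatever their length, 1.67% were at least 2-fold lower and 0.877% higher, and the interval lay below 0 for 31.7% and above 0 for 36.6%. With a loess curve on transcript length taken off, *Hivep1* was at -0.03, *Hivep2* at 0.14 and *Hivep3* at -1.33, or at -1.42 when the curve is read at its RefSeq length. *Hivep1* and *Hivep2* therefore lay inside the range of other long genes, whereas *Hivep3* lay near or at its lower end. RNA quality values for the 2 libraries were not used here, and the part of library preparation in the length trend was not tested.

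**Figure D3:**
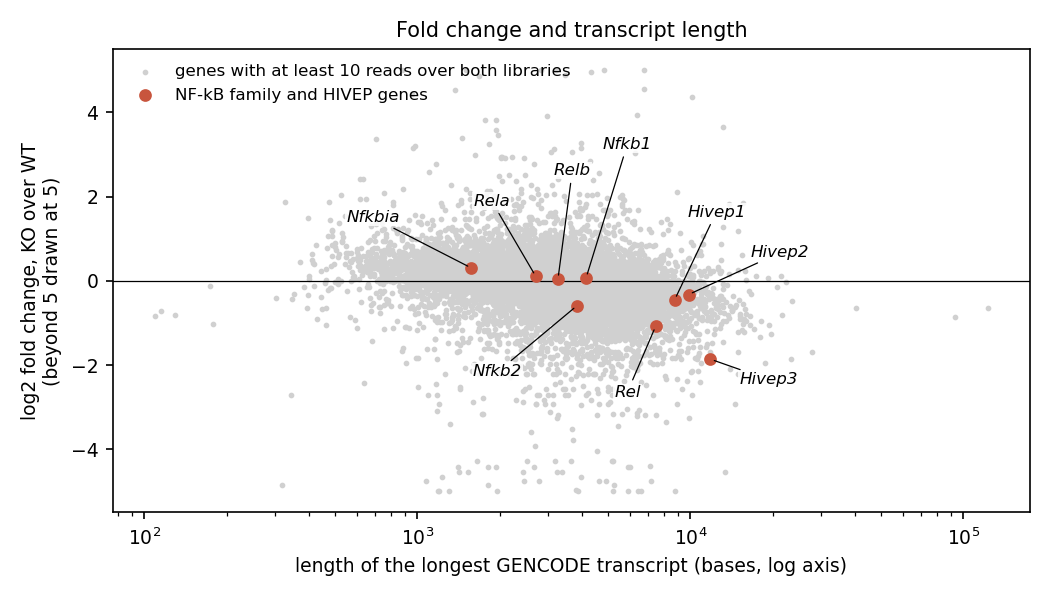
Log2 fold change (KO over WT) against the length of the longest transcript (log axis) for the measured genes with a length in grey and the 9 genes of the set in red. The grey cloud falls with length (Spearman's rho -0.37), with *Hivep1* and *Hivep2* inside it at -0.45 and -0.33 and *Hivep3* at its lower edge at -1.86.

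Between genes, levels were compared as RPKM, reads per 1000 bases of the longest transcript and 1000000 reads, with exact 95% Poisson intervals. In WT the highest level was that of *Nfkbia*, 178 RPKM (from 170 to 186). *Nfkb1* at 147 (from 143 to 152) and *Rela* at 139 (from 134 to 145) were next, and their intervals overlap. *Relb* followed at 58.7 and *Hivep3* at 40.4 (from 39.0 to 41.8), above *Hivep1* at 18.6 (from 17.5 to 19.7) and *Hivep2* at 12.2 (from 11.4 to 13.1). *Nfkb2* at 5.0 (from 4.18 to 5.95) and *Rel* at 3.89 (from 3.36 to 4.48) were lowest, and their intervals overlap.

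In KO *Hivep3* and *Hivep1* changed places on this scale. *Nfkbia* was at 220 RPKM (from 210 to 229), *Nfkb1* at 155 (from 150 to 160), *Rela* at 149.8 (from 144 to 156), its interval again overlapping that of *Nfkb1*, and *Relb* at 60.3. *Hivep3* at 11.1 (from 10.4 to 11.9) lay below *Hivep1* at 13.5 (from 12.6 to 14.6), and its interval overlapped that of *Hivep2* at 9.74 (from 8.97 to 10.6). *Nfkb2* was at 3.32 and *Rel* at 1.84 (from 1.47 to 2.28). The change of place rests on the length taken for *Hivep3*. Its longest curated RefSeq mRNA has 9021 bases, against 11838 for the GENCODE transcript. With RefSeq lengths, an alternative chosen after seeing the data, *Hivep3* was at 53.0 RPKM in WT and 14.6 (from 13.6 to 15.6) in KO, with *Hivep1* at 13.5 (from 12.6 to 14.6), so that their KO intervals overlap and all 9 genes have the same order in both libraries. On either length the *Hivep3* level was well above that of *Hivep1* in WT and near it in KO. With RefSeq lengths the WT interval of *Nfkb2* (from 5.01 to 7.14) no longer overlapped that of *Rel* (from 3.36 to 4.48). Because the tables hold fewer reads for genes with several transcripts, levels of *Hivep2*, *Nfkb2*, *Rela* and *Relb* against the others carry that limit.

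**Figure D4:**
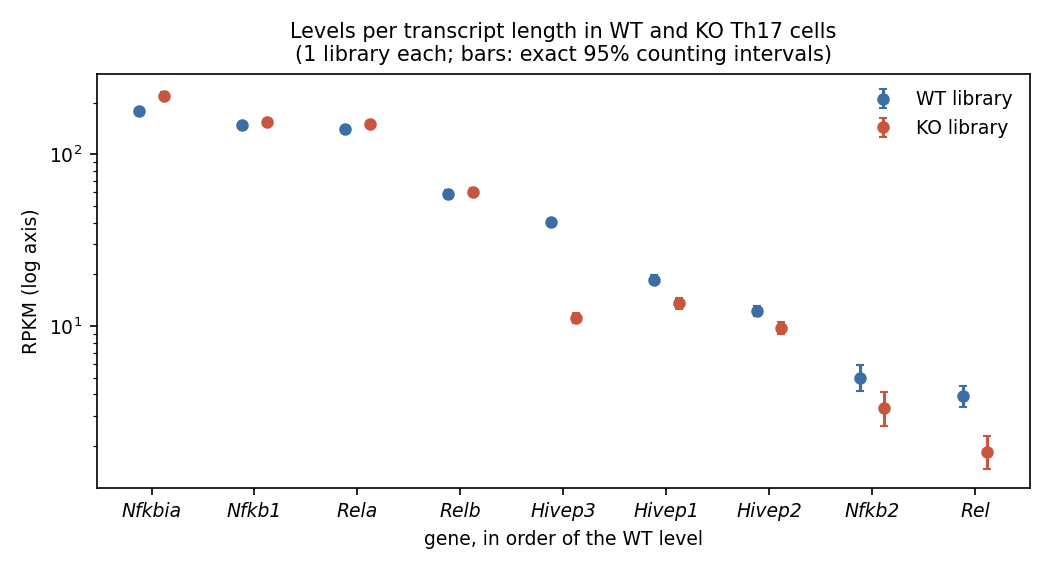
RPKM (log axis) of the 9 genes with reads, in order of the WT level, in the WT (blue) and KO (red) library, with exact 95% counting intervals. *Hivep3* goes from 40.4 in WT, above *Hivep1* at 18.6, to 11.1 in KO, close to *Hivep1* at 13.5, and which of the pair is higher in KO depends on the transcript length taken.

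The remaining genes of the pathway were taken from lists for each step. Of the 4 other IkB proteins, all were measured and none differed 2-fold, and their median log2 fold change was 0.30. *Bcl3*, a nuclear IkB that binds p50 and p52, had 1799 reads in WT and 2588 in KO, a log2 difference of 0.63 (0.54 to 0.72). *Nfkbib* and *Nfkbie* were at 0.26 and 0.33. After the length correction these 3 were at 0.45, 0.10 and 0.29. *Nfkbid*, the gene of the nuclear protein IkBNS, was the 1 of the 4 whose interval lay below 0, at -0.55 (-0.78 to -0.32) with 412 and 262 reads, and was named after its values were seen.

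Of the 10 IKK and upstream kinase genes, 9 were measured, 1 was at least 2-fold lower and none higher, with a median of -0.17. The shares of all measured genes were 7.94% lower and 3.75% higher. The lower gene was *Tab3*, an adaptor of the kinase TAK1, with 160 and 73 reads, a log2 difference of -1.02 (-1.45 to -0.62). After the length correction it was -0.71. The genes with the most reads were *Tab2*, at -0.32, *Ikbke*, an IKK-related kinase gene, at -0.56, and *Map3k14*, the gene of the non-canonical kinase NIK, at -0.17. After the length correction these were -0.21, -0.28 and -0.07.

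Of the 8 genes that link the T cell receptor to NF-kB, all were measured, and *Malt1* was the 1 that was at least 2-fold lower. That share was 7.94% among all measured genes. *Malt1*, the gene of a protease and scaffold that acts with BCL10, had 4871 reads in WT and 1830 in KO, a log2 difference of -1.31 (-1.39 to -1.23). After the length correction it was -0.99, just short of 2-fold. *Prkcq*, the gene of the kinase PKCθ, had 2624 and 1486 reads and a value of -0.72. *Bcl10*, the gene of the partner of MALT1, was at 0.33 (710 and 830 reads) and was named after its values were seen. The median of this list was -0.14.

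The 8 TNF receptor adaptor genes were all measured, with none past 2-fold and a median of 0.08. *Traf1* was at 0.35, *Birc3* at 0.05 and *Ripk1* at -0.07, and after the length correction at 0.36, -0.01 and 0.25. Of the 11 genes that restrain NF-kB, 10 were measured, with a median of -0.07. At least 2-fold lower was 1 and at least 2-fold higher 1, against 7.94% and 3.75% of all measured genes. *Otud7b*, a deubiquitinase gene, was past 2-fold with only 9 and 3 reads, its interval from -4.00 to 0.52 includes 0, and after the length correction it was at -0.93, short of 2-fold. *Tnip3*, the gene of an A20-binding inhibitor, had 4 reads in WT and 24 in KO, a log2 difference of 2.55 (1.15 to 4.68). *Tax1bp1* was at 0.30, *N4bp1* at -0.37 and *Otulin*, listed under its older symbol, at 0.18, and after the length correction at 0.39, -0.05 and -0.04. *Tnfaip3*, the A20 gene, had 27 and 21 reads, and its interval from -1.15 to 0.62 includes 0.

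Of 34 target genes of NF-kB, 5 of which stand in other lists as well, 32 were measured. At least 2-fold lower were 2 and at least 2-fold higher 1, against 7.94% and 3.75% of all measured genes, and the median was 0.03. The lower genes were *Ccl20*, a chemokine gene, with 12 reads in WT and 0 in KO, and *Irf1*, with 8 and 2 reads. *Ccl20* was at least 3.72-fold lower when 3 reads are taken as the KO floor and the 12 WT reads as exact. With counting error in both libraries, its upper limit on the log2 scale was -1.37. The *Irf1* interval, from -5.17 to 0.43, includes 0. The higher gene was *Gadd45b*, a stress response gene, with 62 and 119 reads, a log2 difference of 1.04 (0.59 to 1.51). After the length correction the median of the list was -0.06. The targets with the most reads were *Il2ra* at -0.36, *Junb* at 0.10 and *Ccnd2* at -0.43, and after the length correction at -0.24, -0.09 and -0.12. *Gadd45b* was then at 0.80, short of 2-fold. The intervals of 9 of the 32 measured targets lay below 0 and those of 10 above. Among all measured genes these were 25.0% and 23.5%, so the targets were near the share of all genes.

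Of 10 genes whose products are known partners of HIVEP proteins, 8 were measured and none was past 2-fold, with a median of 0.07. *Traf2*, the TNF receptor adaptor that HIVEP3 binds, had 392 and 390 reads and a value of 0.10 (interval from -0.11 to 0.30). *Jun*, the gene of the other partner of HIVEP3 named above, had 608 and 818 reads and was at 0.53 (0.38 to 0.69), and both genes were named after their values were seen. The kinase genes *Mapk3* and *Rps6ka3*, among those with the most reads in the list, were at 0.31 and -0.62, or 0.12 and -0.25 after the length correction.

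**Figure D5:**
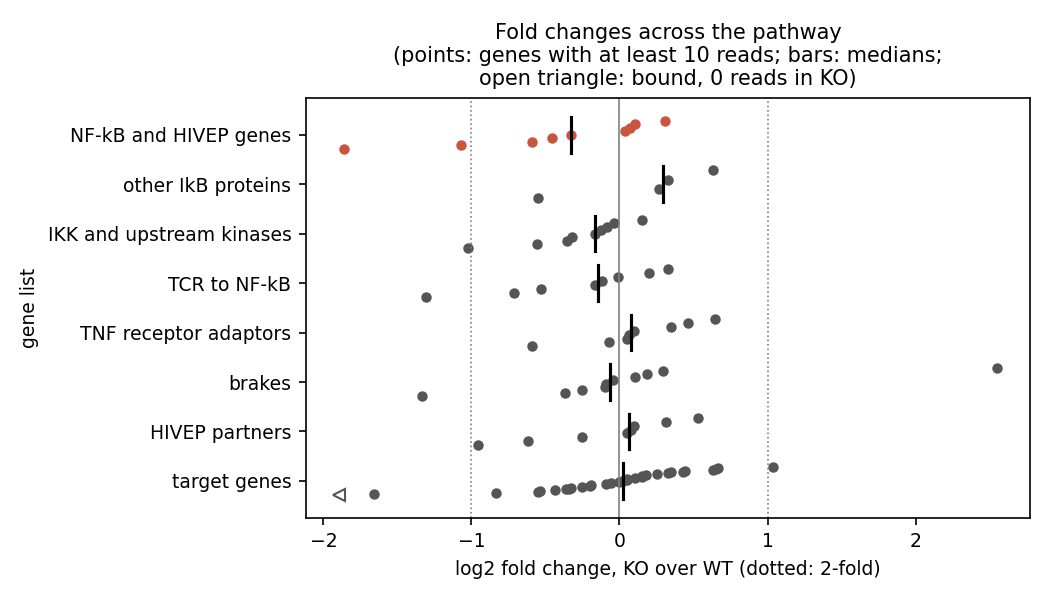
Log2 fold change (KO over WT) of every measured gene of each list, 1 point per gene, with the median as a bar and *Ccl20*, which has 0 reads in KO, as an open triangle at its bound. Medians lie between -0.33 and 0.30, and most points lie inside the dotted 2-fold lines, with *Hivep3* at -1.86 and *Malt1* at -1.31 to the left of them.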

How the data were processed

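RNA of WT and *Trim28*-deleted Th17 cells was sequenced as 1 library each. According to the methods of the study, the authors mapped the reads to mm10 with SOAP2. The deposited values are raw counts, the number of reads that fell uniquely on each gene, not normalized, and genes without reads are not listed. HTSeq, Bowtie, SICER 1.1 and bcl2fastq are named in the submitters' processing notes without a role. The counting program, its annotation and its strand setting are not given in the sources used here. The ChIP-seq samples were not analysed here.

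Counts were scaled to library totals, and 0.5 was added for log2 fold changes. Genes whose WT and KO reads summed to 10 or more were kept, and a change of at least 2-fold was called. With 1 library per genotype no residual degrees of freedom are left for a quasi-likelihood fit, so no test with a measured variation between cultures was made. The exact test of edgeR was run as an alternative only, with an assumed coefficient of variation of 0.2 or 0.4. A gene was called there at a false discovery rate below 0.05 over the measured genes and a change of at least 2-fold. Exact (Clopper-Pearson, conditional odds ratio or Poisson) 95% intervals hold the counting error alone. Without molecular identifiers, several reads can stem from 1 molecule. Transcript length and GC content are those of the longest GENCODE M21 transcript, found for 13562 of 13704 names. Positions and curated mRNAs are from RefSeq GRCm38.p6, the assembly behind mm10, and 12807 names matched such an mRNA. Loess curves (statsmodels 0.14.6, span 0.3) were taken off with their median kept. Alternatives used edgeR 4.0.16 and DESeq2 1.42.0 in R 4.3.3, and the remainder Python 3.11.15 and SciPy 1.17.1. Tested on simulated data of 10881 genes, all 200 of the genes given a 4-fold change passed the 2-fold limit. The 200 were drawn from genes above a read limit stricter than that for measured genes, and only counting error was simulated. The result therefore does not cover calls at low counts or variation between cultures.

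The genes of the set and the pathway lists were chosen with earlier results of these data known. Named from each list were the genes past 2-fold and the 3 with the most reads, and any other gene was named after its values were seen. Of the genes this rule names, 2 are not reported here.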

Additional observations from a re-analysis of the deposited data

How the results depend on the processing

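The settings were varied 1 at a time. The 2 genes of the set at least 2-fold lower were *Hivep3* and *Rel* under TMM scaling, DESeq2's size factors, upper-quartile scaling, 5 added to each count and every filter on low counts. At a fold of 1.5 the count was 3, with *Nfkb2* added. The length correction, the GC correction and an edgeR test with a set coefficient of variation of 0.2 each left 1, *Hivep3*, and 0.4 left 0. No gene of the set was at least 2-fold higher under any of these settings. The causes were not tested. Over all measured genes, 864 were at least 2-fold lower and 408 higher. With 5 added to each count these were 551 and 262, with at least 1 read over both libraries 2012 and 1152, with at least 10 reads in each library 406 and 195, and at a fold of 1.5 1927 and 1170. By the edgeR test they were 131 and 65 at 0.2, and 9 and 7 at 0.4. The *Hivep3* share of HIVEP reads, 62.9% in WT and 38.0% in KO, was 56.8% and 32.3% per GENCODE length and, in an alternative chosen after seeing the data, 63.5% and 38.7% per RefSeq length. Of 54 values of the 9 genes under the other scalings, pseudocount and corrections, 45 lay inside the gene's counting interval and 9 outside. The sign changed for *Hivep2* with the length correction and for *Rela* and *Relb* with the GC correction. With the length curve read at RefSeq lengths, an alternative chosen after seeing the data, *Hivep2* was at 0.15. *Relb* was then at -0.11, also with a changed sign and outside its counting interval of -0.08 to 0.15. Scalings moved fold changes by at most 0.02 on the log2 scale. No paired analysis was possible because there was 1 library per genotype, and leaving out a library leaves no comparison.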

Other observations

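The genes next to those of the set on the chromosome were also read out. The nearest protein-coding neighbours of *Hivep3*, *Guca2a* and *Guca2b* on one side and *Edn2* and *Foxo6* on the other, had 0 or 1 reads in each library, so the *Hivep3* difference had no expressed neighbour to be set beside. *Nxpe3*, which lies 999 bases from *Nfkbiz*, had 2699 reads in WT and 1011 in KO, a log2 difference of -1.31 (-1.42 to -1.21). The next gene on that side, *Cep97*, had 1364 and 1464 reads, a log2 difference of 0.21. Beside *Rel*, *Papolg* had 279 and 196 reads, at -0.40 (-0.68 to -0.14), and *Pus10* had 22 and 11. *Bcl11a*, 305595 bases from *Rel*, had 11 and 0, with an upper limit of -1.22 on the log2 scale. Beside *Rela*, *Rnaseh2c* had 303 and 478 reads, at 0.76 (0.55 to 0.97). On either side of *Relb*, *Clasrp* was at -0.27 with 581 and 449 reads and *Clptm1* at 0.02 with 1384 and 1307, and *Zfp296*, beyond *Clasrp*, was at -1.46 (-2.27 to -0.75) with 63 and 21. Of these neighbours, *Nxpe3*, *Zfp296* and *Bcl11a* were at least 2-fold lower. So were *Alcam*, 3358294 bases from *Nfkbiz*, at -1.40 with 291 and 102 reads, and *Bank1*, 361394 bases from *Nfkb1*, at -1.32 with 17 and 6. The *Bank1* interval, from -3.03 to 0.01, includes 0. The measured neighbours not named here were all within 2-fold. Of all measured genes, 7.94% were at least 2-fold lower. The share of the neighbours past 2-fold was not determined, so the lower ones are not read as an excess. None of these neighbour values is corrected for transcript length. The genes given here were picked after their values were seen.

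Across the genome a kB match in a promoter window went with little difference between the libraries. Of 8222 measured genes with a window, 1002 had a match. Their median log2 fold change was -0.02, and that of the 7220 genes without a match was -0.01. At least 2-fold lower were 8.48% of the genes with a match and 7.74% of those without, and at least 2-fold higher 3.69% and 3.39%. These are descriptions of 2 libraries, without a test.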
